A study of Mus musculus with 9 samples.

Results

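The NRF2 antioxidant target genes, 10 textbook targets of the transcription factor NRF2, were followed in 9 mouse liver tumors. The 10 genes were Nqo1, Hmox1, Gclc, Gclm, Txnrd1, Slc7a11, Srxn1, Gpx2, G6pdx and Osgin1. They were taken by name from the 52163 gene symbols in the per-tumor expression tables, and all 10 of the 10 members had a value in every tumor table and passed the filter on low values in every comparison. The rule names the genes and uses no measured level, but the names were chosen with earlier results of these data known.

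The tumors came from Hepa1-6, a mouse hepatoma cell line, grown in the liver of male C57BL/6 mice aged 6 to 8 weeks. Pieces of subcutaneous Hepa1-6 tumor had been set into the left liver lobe, so every tumor lay beside normal liver, which was trimmed away at collection. Mice received PBS, the vehicle, or an antibody against PD-1, an inhibitory receptor of T cells, by intraperitoneal injection every 4 days for 5 injections, the first on day 10 and the last on day 26, with collection on day 27. The 3 groups were PBS tumors (n = 3), nonresponsive tumors (n = 3), which were the largest under the antibody, and responsive tumors (n = 3), which were the smallest. Tumors of intermediate size were left out. Response was thus defined by tumor size, and response, size and the share of remaining liver tissue cannot be told apart. Each tumor was taken as a sample of its own. RNA was measured in whole tumors, in which fewer cells of a type and less RNA per cell cannot be told apart.

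NRF2, encoded by Nfe2l2, is held in the cytosol and marked for degradation by the adaptor KEAP1 with the ubiquitin ligase scaffold CUL3. Oxidants and electrophiles modify KEAP1, NRF2 then gathers in the nucleus, pairs with a small MAF protein and binds antioxidant response elements near its target genes. The targets make glutathione, recycle thioredoxin, supply NADPH, reduce quinones and break down heme. In liver cancer the pathway can be active through mutations in its control genes.

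Before the values, the promoter letters show which members carry an antioxidant response element core near their start. RefSeq windows of 300 bases, 250 before and 50 after an annotated start in build GRCm38.p6, matched 8 of the 10 members, with 10 windows in all. The core searched was TGACNNNGC on both strands, where N is any base. A core was present in 4 of the 10 windows, those of Gclm, Srxn1 and G6pdx and 1 of the 3 windows of Txnrd1. The same core was present in 4071 of 32851 windows over all genes, or 12.4%. The related letters TGACTCA, an AP-1 type site, were present in Srxn1 and Osgin1 and in 1709 windows over all genes, or 5.2%. These matches describe letters only. The stretches below lie before the start, carry 30 bases on each side of the match, and mark the match in capitals, read 5′ to 3′ on the strand of the gene. They are shown because all 3 of Gclm, Txnrd1 and G6pdx carry a core, while responsive tumors were above nonresponsive tumors for Gclm and below them for Txnrd1 and G6pdx. Osgin1, higher in responsive than in PBS tumors, carries the AP-1 type letters, and so does Srxn1, which differed by -0.11 there. A link between letters and levels was not tested. In Srxn1 the core lay after the start, so its 2 AP-1 type matches before the start are shown instead.
Gclm, 134 bases before the start, chr3:122245393-122245461, plus strand: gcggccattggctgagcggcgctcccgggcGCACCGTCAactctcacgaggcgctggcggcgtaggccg
Txnrd1, 92 bases before the start, chr10:82859084-82859152, plus strand: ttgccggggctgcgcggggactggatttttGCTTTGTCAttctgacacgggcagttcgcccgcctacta
G6pdx, 57 bases before the start, chrX:74428899-74428967, minus strand: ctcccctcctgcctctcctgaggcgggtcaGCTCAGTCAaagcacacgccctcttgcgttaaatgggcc
Osgin1, 97 bases before the start, chr8:119437020-119437086, plus strand: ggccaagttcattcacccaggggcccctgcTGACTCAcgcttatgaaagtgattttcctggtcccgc
Srxn1, 102 bases before the start, chr2:152105392-152105458, plus strand: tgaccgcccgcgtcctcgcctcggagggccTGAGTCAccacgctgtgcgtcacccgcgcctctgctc
Srxn1, 45 bases before the start, chr2:152105449-152105515, plus strand: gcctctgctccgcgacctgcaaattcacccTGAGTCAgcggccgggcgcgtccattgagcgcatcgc
The windows of Nqo1, Slc7a11 and Gpx2 held neither set of letters, and no window was available for Hmox1 and Gclc. Bases outside the windows were not searched, so a window without a match does not show that a gene lacks an element.

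Levels are given as FPKM, fragments per kilobase of transcript and per 1000000 mapped fragments, and differences as log2(FPKM + 1), which understates the change of genes at low levels. Depth per tumor is unknown, since the tables hold no counts. Between 12533 and 13328 rows naming a gene reached 1 FPKM in each tumor. The rows naming no gene took between 19.19% and 81.52% of a tumor's summed FPKM, and the rows naming a gene summed to between 651109.5 and 814452.3. That sum was at least 765576 in responsive tumors and at most 716227 in nonresponsive tumors. Scaling it to 1000000 in each tumor multiplies every member of a tumor by the same factor and is among the alternatives below. PBS tumor 1 stood apart from other tumors, with Pearson r of log2 values against them from 0.78 to 0.91, and it was the lowest of all 9 tumors for Gclc, Gclm, Hmox1, Osgin1 and Gpx2. The tumor label was checked against 4 hepatoma markers, of which H19 and Gpc3 reached 1 FPKM in all 9 tumors and Afp and Igf2 did not. Afp was at 0.321 FPKM in nonresponsive tumor 1, 0.646 in responsive tumor 1 and 4.40 to 56.5 in the other tumors. Igf2 was at 0.805 FPKM in PBS tumor 2 and 0.771 in responsive tumor 3. All 12 hepatocyte markers reached 1 FPKM in all 9 tumors, but they cannot tell tumor from remaining liver.

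By their mean over 9 tumors the members ran from Hmox1 at 186 FPKM through Gclm at 72.1, Txnrd1 at 67.2, Osgin1 at 53.0, G6pdx at 28.3, Gclc at 24.5, Srxn1 at 19 and Slc7a11 at 10.1 to Gpx2 at 2.66 and Nqo1 at 2.50 FPKM. Neighbors in this order overlapped over the 9 tumors in every case. Srxn1 was the most even, at 16.6 to 20.8 FPKM and a coefficient of variation of 8.54% over 9 tumors. Osgin1 and Hmox1 varied most between tumors among the members with no value at 0, with highest over lowest ratios of 16.4 and 13.4.

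**Figure D1:**
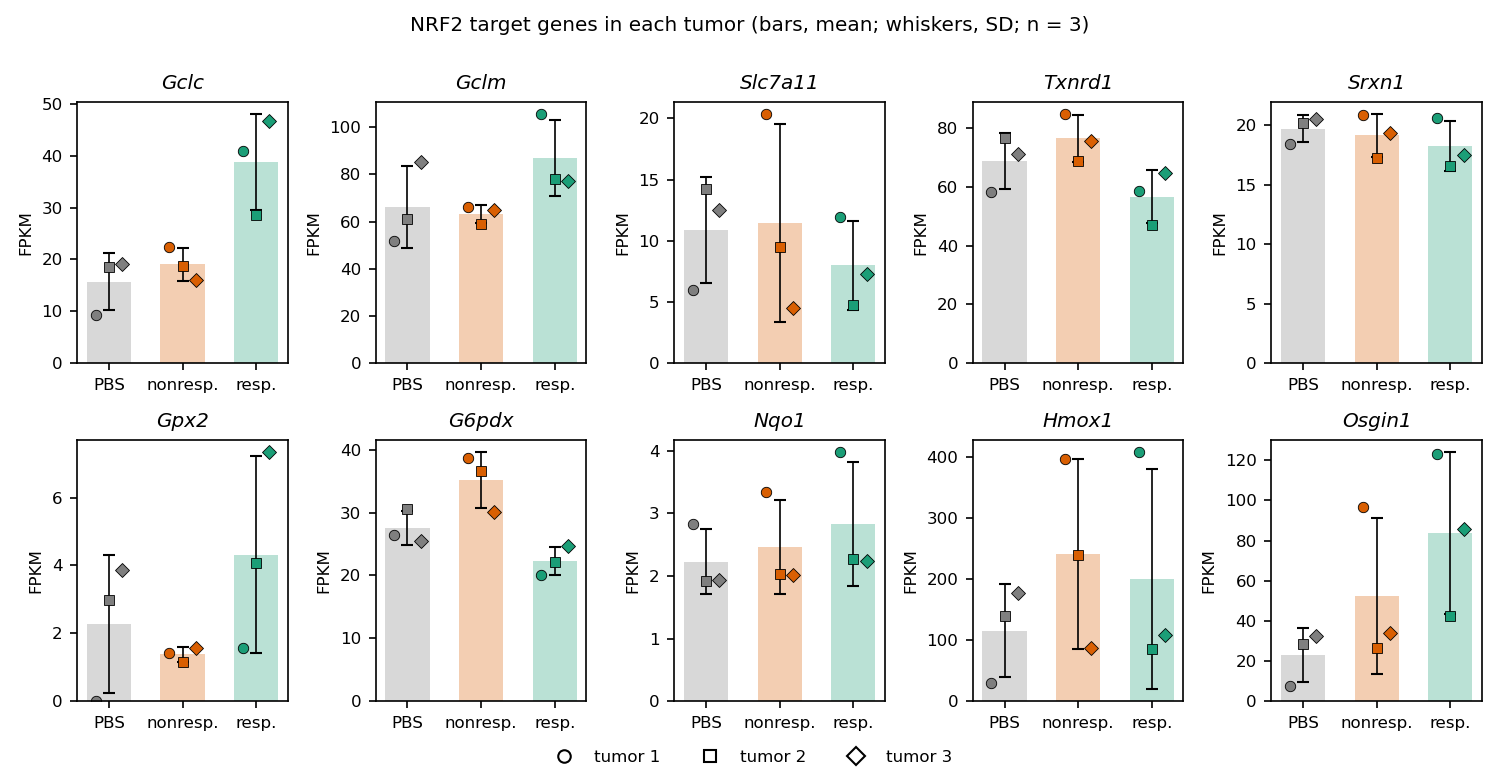
FPKM of the 10 NRF2 target genes in each tumor, by group on the horizontal axis. Bars are means, whiskers are SD (n = 3) and symbols are the 3 tumors of a group. Gclc is higher in all 3 responsive tumors, at 28.6 to 46.7 FPKM, than in the other 6 tumors, and G6pdx is lower.

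The first question was whether the smallest tumors under the antibody differed in NRF2 targets from the largest. No member passed limma with Benjamini-Hochberg adjustment over 13832 features, in which 0.116% of all features were called, and the smallest adjusted p was 0.886. At an unadjusted p under 0.05 there were 2 of 10 members (5.49% of all features passed), Gclc higher (4.05% of all features were higher) and G6pdx lower (1.44% were lower). Of the 10 members, 5 were higher in responsive tumors (42.5% of all features were) and 5 were lower, with a median difference of 0.03 on the log2 scale beside a median of -0.07 over all features.

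Glutathione synthesis begins with the ligase of which Gclc encodes the catalytic subunit and Gclm the modifier subunit. Gclc was at 9.36, 18.6 and 19.2 FPKM in PBS tumors, 22.4, 18.8 and 16.0 in nonresponsive tumors and 41.0, 28.6 and 46.7 in responsive tumors. All 3 responsive tumors were above all 6 others. Against nonresponsive tumors Gclc differed by 0.97 on the log2 scale (SE 0.254, 95% confidence interval 0.35 to 1.60), with an unadjusted p of 0.00895 and an adjusted p of 0.886 in limma. The exact permutation test, two-sided, gave 0.1, the smallest p that 3 tumors against 3 can give. Gclm, whose row also names Gm6061 in every tumor so that the value is of both, was at 51.8, 61.2 and 85.4 FPKM in PBS tumors, 66.2, 59.1 and 64.8 in nonresponsive tumors and 106, 78.1 and 77.1 in responsive tumors. Responsive tumors were above all nonresponsive tumors but overlapped PBS tumors. The difference against nonresponsive tumors was 0.44 (SE 0.207, unadjusted p = 0.08 in limma, adjusted p = 0.898).

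The ratio of Gclc to Gclm FPKM within a tumor does not move with the scaling of a tumor. It was 0.181, 0.303 and 0.225 in PBS tumors, 0.338, 0.318 and 0.246 in nonresponsive tumors and 0.388, 0.367 and 0.606 in responsive tumors, so that all 3 responsive tumors were above the other 6. The ratio of Gclc to G6pdx was 0.354 to 0.752 in the other 6 tumors and 1.29 to 2.04 in responsive tumors. It had to separate and adds no further result, since responsive tumors were above the other 6 for Gclc and below them for G6pdx. The ratio of Gclm to Txnrd1 did overlap. It was 0.892, 0.799 and 1.20 in PBS tumors, 0.781, 0.858 and 0.857 in nonresponsive tumors and 1.81, 1.67 and 1.19 in responsive tumors. All of these ratios were chosen after the values had been seen and were not tested.

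Slc7a11 encodes the cystine transporter that feeds glutathione synthesis. It was at 5.97, 14.2 and 12.5 FPKM in PBS tumors, 20.4, 9.46 and 4.53 in nonresponsive tumors and 11.9, 4.77 and 7.30 in responsive tumors, and the 3 groups overlapped. The difference of responsive from nonresponsive tumors was -0.33 (SE 0.563, adjusted p = 0.977 in limma).

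Txnrd1 encodes thioredoxin reductase of the cytosol and Srxn1 encodes sulfiredoxin, which restores oxidized peroxiredoxins. Txnrd1, whose row also named Eid3 in PBS tumor 1 and nonresponsive tumor 3, was at 58.1, 76.6 and 71.3 FPKM in PBS tumors, 84.7, 68.9 and 75.6 in nonresponsive tumors and 58.5, 46.9 and 64.6 in responsive tumors. Every responsive tumor was below every nonresponsive tumor, with a difference of -0.43 (SE 0.208, unadjusted p = 0.083 in limma, adjusted p = 0.9). Srxn1 was at 18.4, 20.2 and 20.5 FPKM in PBS tumors, 20.8, 17.3 and 19.4 in nonresponsive tumors and 20.6, 16.6 and 17.5 in responsive tumors. These ranges overlapped, and the difference of -0.07 had a 95% interval of -0.52 to 0.38.

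Gpx2 encodes a glutathione peroxidase of epithelia. It was listed at 0 in PBS tumor 1 and was at 2.97 and 3.86 FPKM in the other PBS tumors, at 1.43, 1.15 and 1.57 in nonresponsive tumors and at 1.56, 4.06 and 7.34 in responsive tumors. Responsive tumor 1 lay within the nonresponsive range. The difference of responsive from nonresponsive tumors was 1.00 (SE 0.446, unadjusted p = 0.0662 in limma, adjusted p = 0.887), and it was 1.45 (unadjusted p = 0.00531) without responsive tumor 1 but 0.60 (unadjusted p = 0.173) without responsive tumor 3.

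G6pdx encodes the first enzyme of the pentose phosphate pathway, which supplies NADPH to the other reductases. It was at 26.4, 30.6 and 25.5 FPKM in PBS tumors, 38.7, 36.5 and 30.1 in nonresponsive tumors and 20.1, 22.2 and 24.7 in responsive tumors. Responsive tumors were below all 6 others, and nonresponsive tumors overlapped PBS tumors. Against nonresponsive tumors the difference was -0.63 (SE 0.190, unadjusted p = 0.0164 in limma, adjusted p = 0.886), with an exact permutation p of 0.1, two-sided. The unadjusted p was 0.0538 without nonresponsive tumor 2 and 0.0618 without responsive tumor 1. The deposited confidence interval of G6pdx in responsive tumor 3 ran from 0 to 96010 FPKM, and without that tumor the difference was -0.70 (unadjusted p = 0.0358).

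Nqo1 encodes a quinone reductase that is widely used as a readout of NRF2. It was at 2.82, 1.91 and 1.93 FPKM in PBS tumors, 3.33, 2.04 and 2.02 in nonresponsive tumors and 3.97, 2.26 and 2.24 in responsive tumors. The groups overlapped, and the difference of responsive from nonresponsive tumors was 0.14 (SE 0.28, adjusted p = 0.982 in limma) and -0.0094 when rows naming a gene were scaled to 1000000.

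Hmox1 encodes heme oxygenase, which macrophages also make when they clear red cells. It was at 30.4, 139.9 and 176 FPKM in PBS tumors, 397, 239 and 87.2 in nonresponsive tumors and 408, 85.2 and 108 in responsive tumors, and the highest tumor of the nonresponsive and of the responsive group stood near 400 FPKM. The difference of responsive from nonresponsive tumors was -0.38 (SE 0.799, 95% interval -2.34 to 1.59). Osgin1, an oxidative stress induced growth inhibitor, was at 7.50, 28.5 and 32.7 FPKM in PBS tumors, 96.9, 26.5 and 33.9 in nonresponsive tumors and 122.9, 42.3 and 85.8 in responsive tumors. Nonresponsive tumor 1 lay inside the responsive range. The difference was 0.77 (SE 0.611, unadjusted p = 0.255 in limma), and it ran from 0.41 without nonresponsive tumor 2 (unadjusted p = 0.565) and 0.43 without responsive tumor 1 (unadjusted p = 0.543) to 1.32 without nonresponsive tumor 1 (unadjusted p = 0.0444).

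In responsive against nonresponsive tumors the groups did not overlap for 4 of the 10 members, with Gclc and Gclm above (5.78% of all features) and Txnrd1 and G6pdx below (4.75%). The plot of differences gives the intervals for all 3 comparisons.

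**Figure D2:**
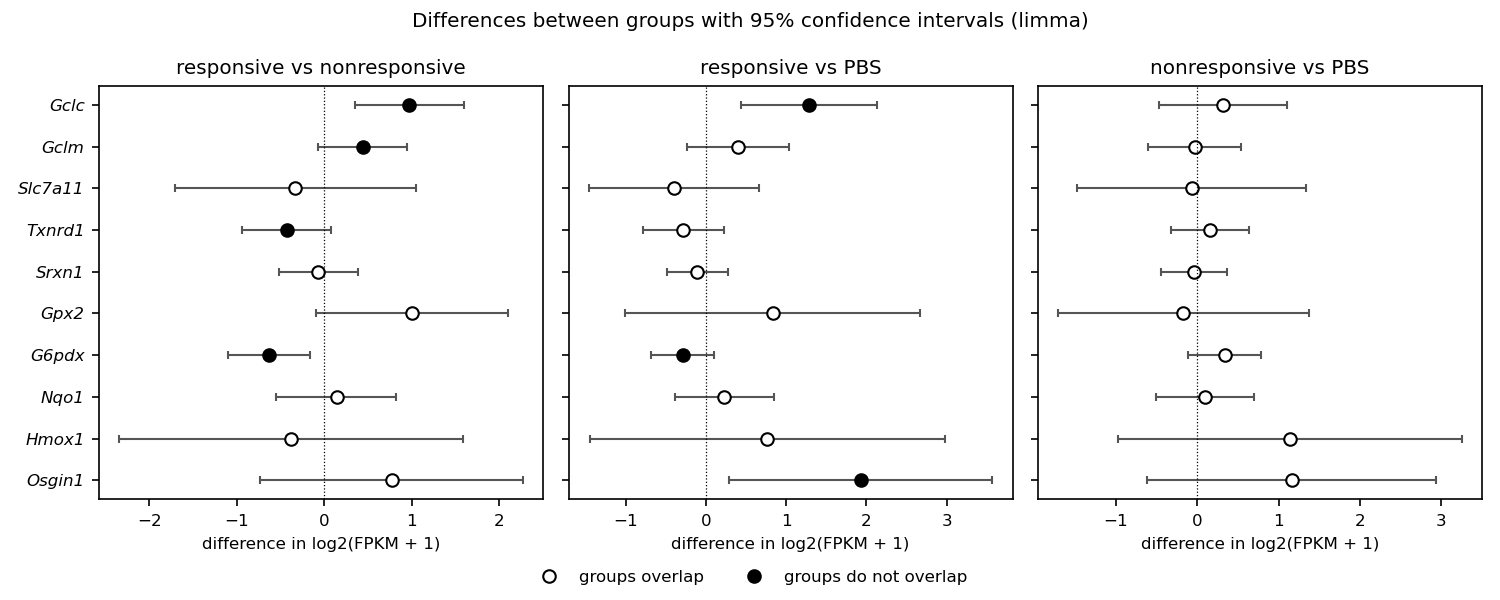
Difference in log2(FPKM + 1) of each member between groups, with 95% confidence intervals from limma. Filled points mark members whose groups do not overlap, 4 in responsive against nonresponsive, 3 in responsive against PBS and 0 in nonresponsive against PBS tumors.

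Against PBS tumors, which asks how the smallest antibody-treated tumors differed from vehicle, Gclc and Osgin1 were higher in responsive tumors. Gclc was at 38.8 ± 9.26 FPKM (SD, n = 3) in responsive and 15.7 ± 5.51 in PBS tumors, and the difference was 1.29 (SE 0.340, unadjusted p = 0.0101 in limma, adjusted p = 0.281). Without PBS tumor 1 it was 0.97 (unadjusted p = 0.0148). Osgin1 was at 83.7 ± 40.3 FPKM in responsive and 22.9 ± 13.5 in PBS tumors (SD, n = 3), a difference of 1.93 (SE 0.662, unadjusted p = 0.0285 in limma, adjusted p = 0.281), or 1.30 without PBS tumor 1 (unadjusted p = 0.0445). The unadjusted p of Osgin1 was 0.0859 without responsive tumor 1 and 0.0752 without responsive tumor 3. These were 2 of 10 members at an unadjusted p under 0.05, where 17.2% of all features passed, 8.48% higher and 8.76% lower, and none passed the adjustment over 13841 features, of which 0.231% were called.

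The groups were separate for 3 of 10 members and for 28.0% of all features. Gclc and Osgin1 lay above all PBS tumors, as did 11.6% of all features, and G6pdx lay below, as did 16.4%. The G6pdx difference was -0.29 (SE 0.159, unadjusted p = 0.118 in limma). Gclm differed by 0.40, Gpx2 by 0.83, Hmox1 by 0.76 and Nqo1 by 0.23, all with overlapping groups. For Gpx2 the difference was 0.118 without PBS tumor 1, where it is listed at 0, and 1.80 at a pseudocount of 0.1. Txnrd1 at -0.28, Slc7a11 at -0.40 and Srxn1 at -0.11 were lower in mean with overlapping groups. Of the 10 members 6 were higher in responsive tumors, as were 42.1% of all features. The median over the 10 members was 0.32 and that over all features -0.11, and without PBS tumor 1 the member median was 0.053.

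Nonresponsive tumors against PBS tumors compared the largest tumors under the antibody with vehicle. The nonresponsive tumors were chosen by size, so antibody and size cannot be told apart here. No member reached an unadjusted p of 0.05 (3.22% of all features did, 1.51% higher and 1.71% lower), the smallest being 0.112 for G6pdx at 0.34 (SE 0.181, adjusted p = 0.718 in limma), and no adjusted p passed (0.0798% of 13793 features did). All 10 members overlapped between these groups, while 8.21% of all features did not, 3.23% above and 4.97% below. Of the 10 members 6 were higher in nonresponsive tumors, as were 44.5% of all features. The largest differences were 1.16 for Osgin1 (95% interval -0.62 to 2.93) and 1.14 for Hmox1 (-0.97 to 3.25), and the intervals allow a change of either sign. Without PBS tumor 1, Gpx2 was 0.89 lower on the log2 scale in nonresponsive tumors (difference -0.885, unadjusted p = 0.0151). The 3 comparisons share their groups, so their values are not independent of each other.

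Genes around the members were described from 6 lists with 58 genes in all. None of the 58 passed the adjustment in any comparison, with smallest adjusted p of 0.495, 0.228 and 0.718 in limma for responsive against nonresponsive, responsive against PBS and nonresponsive against PBS tumors. In the same order the genes at an unadjusted p under 0.05 were 10 higher and 1 lower, 14 higher and 1 lower, and 0. Over all features 4.05% were higher and 1.44% lower, 8.48% and 8.76%, and 1.51% and 1.71%, and whatever the p 42.5%, 42.1% and 44.5% had the higher mean.

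Among the 10 control genes Nfe2l2 was at 73.9 ± 7.48 FPKM in PBS, 78.7 ± 10.8 in nonresponsive and 67.8 ± 9.74 in responsive tumors, and Keap1 at 32.4 ± 1.05, 28.4 ± 6.18 and 30.4 ± 9.12 FPKM (SD, n = 3 each). Cul3 was the single control gene at an unadjusted p under 0.05, at 26.9, 29.9 and 40.2 FPKM in responsive and 57.0, 44.3 and 46.3 in nonresponsive tumors, with a difference of -0.60 (SE 0.228, unadjusted p = 0.0386 in limma, adjusted p = 0.886), kept in 9 of 15 alternatives. Against PBS tumors Cul3 differed by -0.58, also without overlap (unadjusted p = 0.0542). Mafk, outside the naming rule and named after its values were seen, was below both other groups in all responsive tumors. It differed by -0.23 from nonresponsive tumors (unadjusted p = 0.251 in limma) and by -0.22 from PBS tumors (unadjusted p = 0.185). Mafg, likewise, was at -0.45 in nonresponsive against PBS tumors without overlap (unadjusted p = 0.0756). Groups did not overlap for 2 of the 10 control genes in responsive against nonresponsive tumors (10.5% of all features) and for 2 in responsive against PBS tumors (28.0%). In nonresponsive against PBS tumors this held for 1 (8.21%). Sqstm1, which encodes the autophagy receptor that competes for KEAP1, ranged from 156 to 250 FPKM, with both ends in responsive tumors, and Nfe2l1, an NRF2 relative, was at a mean of 57.1 FPKM. The list median was -0.03 in responsive against nonresponsive, -0.14 in responsive against PBS and -0.02 in nonresponsive against PBS tumors.

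Of the 17 genes that conjugate, reduce and export electrophiles, 14 were higher against nonresponsive tumors and 8 had an unadjusted p under 0.05, all higher, with a list median of 0.76. Gsta4, a glutathione transferase for lipid aldehydes, was at 15.5, 14.0 and 18.2 FPKM in responsive and 7.16, 4.65 and 4.79 in nonresponsive tumors, and differed by 1.39 (SE 0.229, unadjusted p = 9.66e-04 in limma, adjusted p = 0.495). Ephx1, an epoxide hydrolase, differed by 0.98 (SE 0.260) and Cbr1, a carbonyl reductase, by 0.76 (SE 0.246), and both groups were separate. Gsta2, Gsta3, Gstm1, Gstm3 and the exporter Abcc2 were the others, at 0.87, 1.43, 1.19, 2.38 and 1.03. Gsta2 was low, at 1.85, 3.0 and 2.26 FPKM in responsive and 1.55, 0.422 and 0.676 in nonresponsive tumors. In PBS tumors it was at 0, 0.501 and 1.19 FPKM. It passed the filter on low values in both comparisons with responsive tumors because all responsive tumors reached 1 FPKM. Its calls in these comparisons are thus no support for a difference. Gsta3, Gstm3 and Abcc2 kept an unadjusted p under 0.05 in 8 of 15 alternatives, Gstm1 in 9, Gsta2 in 9 of 14 and Cbr1 in 10, while Gsta4 and Ephx1 kept it in 15. With 1 tumor left out Gstm3 was lowest at 1.58 (nonresponsive tumor 2) and highest at 3.40 (nonresponsive tumor 1), and it was at 0.855 with shared rows joined. Gstm1 and Gstm3 shared a row in 6 tumors and are 1 measurement there, Gstp1 shared a row with Gstp2 in 7 tumors, and near-identical copies make these levels uncertain.

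Against PBS tumors 13 of the 17 were higher and 9 had an unadjusted p under 0.05, with a list median of 1.00. Cbr1 differed by 1.00 (SE 0.162, unadjusted p = 9.87e-04 in limma, adjusted p = 0.228). Gsta3, Abcc2, Gstp1, Gsta2, Gsta4, Abcc3, Ephx1 and Cbr3 were the others, at 2.89, 2.05, 1.36, 1.17, 1.12, 1.11, 0.90 and 0.87. Cbr3 kept its unadjusted p under 0.05 in 3 of 15 alternatives, Abcc2 in 9 and Gsta3 in 10, and without PBS tumor 1 the differences were 0.534, 1.20 and 1.68, while Cbr1, Ephx1 and Gsta4 kept it in 15 of 15. In nonresponsive against PBS tumors Gsta2 did not pass the filter. Of the 16 genes tested 11 were higher and none had an unadjusted p under 0.05, with a median of 0.29.

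Of the 11 other glutathione and peroxide genes, 7 were higher against nonresponsive tumors and 2 had an unadjusted p under 0.05. These were Cat, which encodes catalase, at 1.30 (SE 0.461) and Sod1, which encodes superoxide dismutase, at 0.81 (SE 0.323). The unadjusted p stayed under 0.05 in 10 of 15 alternatives for Cat and in 5 of 15 for Sod1. Against PBS tumors 8 were higher and 3 had an unadjusted p under 0.05, with Cat at 2.18, Gpx1 at 1.06 and Sod1 at 0.93, kept in 15, 7 and 14 of 15 alternatives. Prdx1, the peroxiredoxin that sulfiredoxin restores, was at 723 ± 146 FPKM in responsive and 663 ± 238 in nonresponsive tumors (SD, n = 3). The medians of this list were 0.17, 0.14 and 0.04 in the 3 comparisons, with 7 genes higher and 0 at an unadjusted p under 0.05 in nonresponsive against PBS tumors.

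The 5 other NADPH enzymes had medians of -0.16, 0.08 and 0.25 in the same order, with 1, 3 and 3 higher. Idh1, the cytosolic isocitrate dehydrogenase, was the single gene at an unadjusted p under 0.05, at 1.16 in responsive against PBS tumors (SE 0.404), kept in 9 of 15 alternatives. Tkt, Taldo1 and Pgd of the pentose phosphate pathway were at means of 179, 167 and 70.3 FPKM over 9 tumors.

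Of the 7 heme and iron genes 4, 7 and 7 were higher in the 3 comparisons, with medians of 0.30, 0.67 and 0.44. Blvrb, a biliverdin reductase, was at 108, 120 and 108 FPKM in responsive and 53.1, 77.0 and 74.1 in PBS tumors, a difference of 0.73 (SE 0.203, unadjusted p = 0.0124 in limma, adjusted p = 0.281). The ferritin genes Fth1 and Ftl1 were at means of 7240 and 3320 FPKM and the heme carrier Hpx at 1880. Of the 8 genes of the ATF4 amino acid response, which shares Slc7a11 as a target, 2, 3 and 3 were higher, with medians of -0.29, -0.46 and -0.29. Asns, an asparagine synthetase, was 1.12 lower on the log2 scale in responsive than in PBS tumors (difference -1.12, SE 0.420, unadjusted p = 0.0397 in limma, kept in 9 of 15 alternatives), Atf4 was at a mean of 102 FPKM, and Phgdh and Psat1, of serine synthesis, at 94.5 and 37.6.

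**Figure D3:**
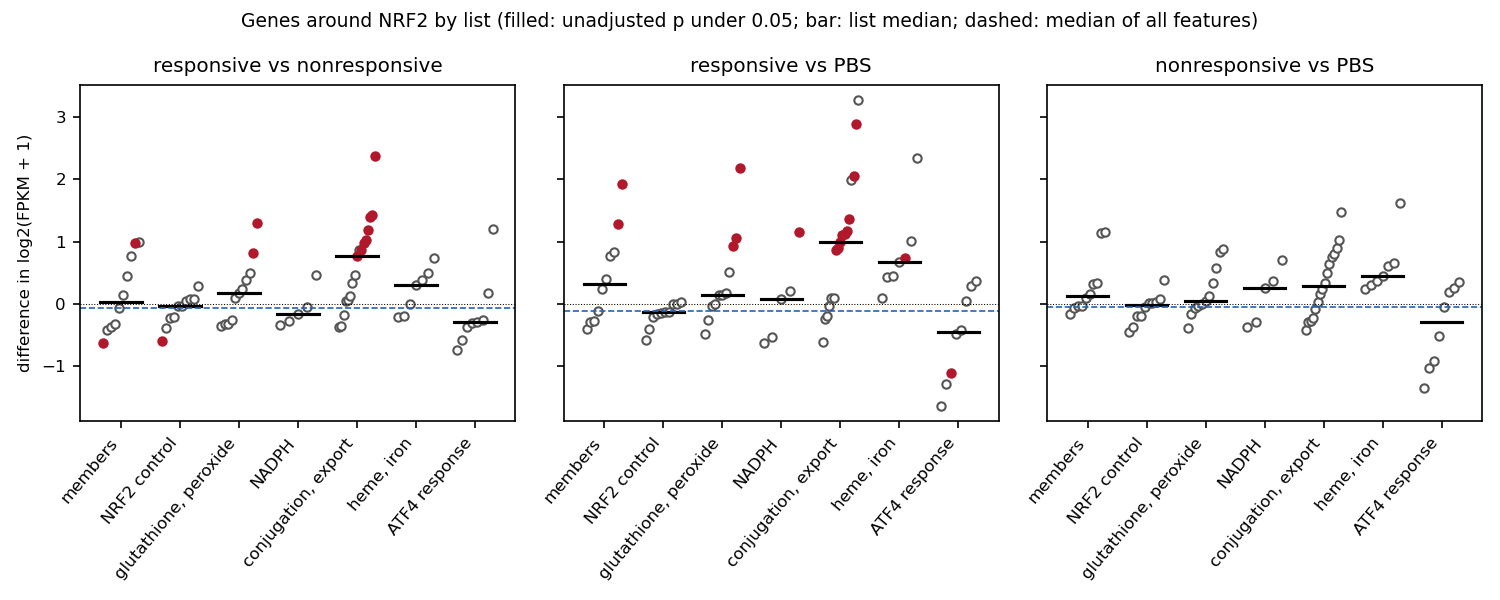
Difference in log2(FPKM + 1) of each gene of the 10 members and of 6 further lists, by comparison. Filled points have an unadjusted p under 0.05 in limma, bars are list medians and the dashed line is the median of all features. The conjugation and export list has a median of 0.76 in responsive against nonresponsive tumors and the NRF2 control list one of -0.03.

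Cell type markers moved along with several members. For 12 of 12 hepatocyte markers the responsive mean exceeded that of nonresponsive tumors (median difference 1.36) and of PBS tumors (median 2.90). Their summed level was 10400 to 16600 FPKM in responsive, 3430 to 11700 in nonresponsive and 387 to 4920 in PBS tumors. All 4 hepatoma markers were lower in mean in responsive than in nonresponsive tumors, with sums of 10.7 to 68.4 against 28.8 to 107 FPKM, and sums in PBS tumors were 36.4 to 45.4 FPKM. The mean log2 value of the hepatocyte markers correlated over the 9 tumors with Gclc (Pearson r = 0.925, exact permutation p = 1.05e-04, adjusted p = 0.00942; Spearman rho = 0.95, exact p = 3.53e-04, adjusted p = 0.0317) and with Osgin1 (r = 0.948, exact permutation p = 2.23e-04, adjusted p = 0.01; rho = 0.833, exact p = 0.00827, adjusted p = 0.106). These p values were adjusted over 90 relations, 10 members with 9 marker lists, in which 4 had an adjusted p of r under 0.05. Without the tumors farthest from the median, PBS tumor 1 and responsive tumor 1, r was 0.868 for Gclc and 0.839 for Osgin1, and over deviations from group means it was 0.917 and 0.896. Other lists also moved with Gclc and Osgin1, at an adjusted p above 0.05. Erythroid markers had r of 0.77 with Gclc (exact permutation p = 0.0133, adjusted p = 0.109) and 0.816 with Osgin1 (exact permutation p = 0.00524, adjusted p = 0.076). Endothelial markers had r of 0.725 with Gclc (exact permutation p = 0.0282, adjusted p = 0.141) and 0.834 with Osgin1 (exact permutation p = 0.00591, adjusted p = 0.076). B cell markers moved with Gclc as well. The sum of Ms4a1 and Cd79a was 30.5 to 95.5 FPKM in responsive, 4.89 to 11.4 in nonresponsive and 0.547 to 31.4 in PBS tumors, and for both the responsive mean was above that of either other group. Their mean log2 value had r = 0.863 and rho = 0.717 with Gclc, with r of 0.62 without PBS tumor 1 and responsive tumor 3 and 0.764 over deviations from group means. The B cell list was cut to 2 markers after values had been seen and was given no test. Gclm had r of 0.763 with hepatocyte markers (exact permutation p = 0.0173, adjusted p = 0.119), or 0.433 without PBS tumor 1 and responsive tumor 1. With erythroid markers it had 0.756 (exact permutation p = 0.0185, adjusted p = 0.119). Gpx2 had r of 0.815 with T cell markers (exact permutation p = 0.00959, adjusted p = 0.0863), or 0.383 without PBS tumor 1 and responsive tumor 3. The part of hepatocyte, erythroid, endothelial, T cell or B cell content in the Gclc, Gclm, Gpx2 and Osgin1 differences was not tested. That of hepatocytes in the differences of the conjugation genes was not tested either.

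Hmox1 was high in the tumors with high macrophage markers. Its level correlated with their mean log2 value (r = 0.914, exact permutation p = 0.0013, adjusted p = 0.0337; rho = 0.867, exact p = 0.00451, adjusted p = 0.106), with r of 0.74 without PBS tumor 1 and responsive tumor 1 and 0.923 over deviations from group means. Summed macrophage markers were at 2160 to 7780 FPKM in responsive, 2250 to 5800 in nonresponsive and 946 to 2940 in PBS tumors, and for 2 of the 8 the responsive mean exceeded the nonresponsive mean. Hmox1 also correlated with the endothelial markers (r = 0.885, exact permutation p = 0.0015, adjusted p = 0.0337; rho = 0.85, exact p = 0.00607, adjusted p = 0.106; 0.706 without PBS tumor 1 and nonresponsive tumor 3). Endothelial sums were 68.7 to 103 FPKM in responsive, 60.8 to 125 in nonresponsive and 49.5 to 98.5 in PBS tumors. At an adjusted p above 0.05, Hmox1 had r of -0.838 with cholangiocyte markers (exact permutation p = 0.00409, adjusted p = 0.0736). It had 0.811 with neutrophil markers (exact permutation p = 0.00713, adjusted p = 0.0802) and 0.739 with hepatocyte markers (exact permutation p = 0.0225, adjusted p = 0.127). The hepatocyte value was 0.124 without PBS tumor 1 and responsive tumor 1. Slc7a11 had r of 0.808 with the neutrophil markers (exact permutation p = 0.00874, adjusted p = 0.0863), whose sums in the same order were 405 to 3260, 519 to 5030 and 172 to 2430 FPKM. The part of these cell types was not tested.

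The remaining marker lists are given by their summed FPKM in PBS, nonresponsive and responsive tumors. T cell markers were at 28.1 to 108, 63.5 to 70.0 and 77.1 to 111, fibroblast markers at 2480 to 3880, 2700 to 4420 and 2340 to 2400, cholangiocyte markers at 98.6 to 286, 10.3 to 228 and 25.0 to 232, and erythroid markers at 76.1 to 458, 133 to 706 and 452 to 751. G6pdx had r of 0.766 with the fibroblast markers (exact permutation p = 0.0207, adjusted p = 0.124), all 5 of which were lower in mean in responsive than in nonresponsive tumors. The part of fibroblasts in the G6pdx difference was not tested.

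**Figure D4:**
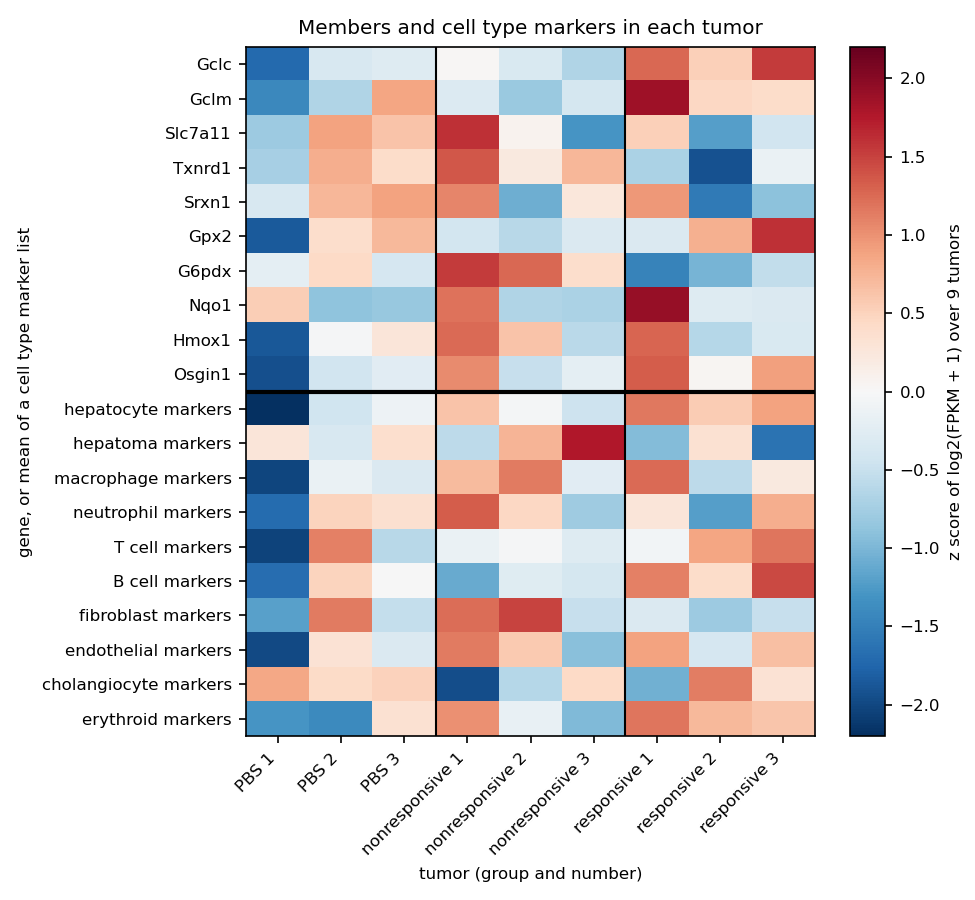
z scores of log2(FPKM + 1) over the 9 tumors for the 10 members and, under the thick line, for the mean of each of 10 cell type marker lists. PBS tumor 1 is lowest for the hepatocyte and macrophage markers and for Gclc, Hmox1 and Osgin1, and nonresponsive tumor 1 and responsive tumor 1 are high for Nqo1, Hmox1 and Osgin1.

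Over the 45 pairs of members 33 correlations across the 9 tumors were positive and 12 negative, 9 had an unadjusted exact permutation p under 0.05 and none an adjusted one. The closest pair was Gclc with Osgin1 (r = 0.876, exact permutation p = 0.00254, adjusted p = 0.114; rho = 0.8, exact p = 0.0138, adjusted p = 0.28), at 0.824 without responsive tumors 1 and 3. Gclc with Gclm was at r = 0.774 (exact permutation p = 0.0146, adjusted p = 0.163; rho = 0.767, exact p = 0.0214, adjusted p = 0.28) and at 0.711 without the same tumors. Txnrd1 with G6pdx was at r = 0.761 (exact permutation p = 0.0166, adjusted p = 0.163; rho = 0.75, exact p = 0.0255, adjusted p = 0.28), but at 0.368 over deviations from group means. Over such deviations 40 of the 45 pairs were positive and 5 negative, with Hmox1 and Slc7a11 at 0.918, Gclc and Txnrd1 at 0.88 (-0.225 over the tumors as they stand), Txnrd1 and Osgin1 at 0.865 and Srxn1 and Osgin1 at 0.852. Values over deviations are a description with no test. Deviations keep any shift that the genes of a tumor share. The share of positive pairs over all features was not counted, for deviations or for the tumors as they stand.

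The mean z score of the members was -1.035, 0.091 and 0.201 in PBS tumors, 0.84, -0.182 and -0.282 in nonresponsive tumors and 0.668, -0.479 and 0.178 in responsive tumors, so the groups overlapped. Of 13256 features, the 5 whose log2 level was most like this mean over the 9 tumors were Sod2 (Pearson r = 0.992), Rab1b (0.982), Nfkbid (0.975), Tnfaip2 (0.974) and Rnd1 (0.973). Sod2, the mitochondrial superoxide dismutase, was at 47.5, 177 and 161 FPKM in PBS tumors, 376, 138 and 113 in nonresponsive tumors and 300, 93.2 and 199 in responsive tumors, highest in nonresponsive tumor 1 and lowest in PBS tumor 1.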

How the data were processed

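Bulk RNA of 9 whole mouse tumors, 3 per group, was sequenced by the authors after TruSeq library preparation. The submitters' processing notes name TopHat2 version 2.1.1 and Bowtie2 version 2.2.4, and the authors deposited FPKM per gene and tumor with confidence limits. The submitters' notes name build mm8, but positions in the tables could not be settled on that build, so none are printed, and strand of the libraries is not given in the sources used here. The deposited table of the authors' own group comparisons (group values, fold changes, p and q) was not used.

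FPKM of rows naming a symbol was summed per tumor. Features at 1 FPKM or more in at least 3 of the 6 tumors compared were tested on log2(FPKM + 1), pseudocount 1, with limma 3.58.1 in R 4.3.3 (moderated test with trend, two-sided, Benjamini-Hochberg over all features). Single values also got an exact two-sided permutation test (scipy 1.17.1). Of all symbols, 13 with a failed estimate were dropped, and 25625 features remained before filtering. The fit was tested on simulated data. Of the B cell markers 1 is not reported here. The members and lists were chosen with earlier results of these data known. All members were named, as were list genes with an unadjusted p under 0.05 or among the 3 highest by mean FPKM of their list, and the 5 features most like the members. Keap1, Mafk and Mafg were named outside this rule. Alternatives changed the pseudocount, the low-value filter, scaling, joined rows, tumors fitted, moderation, replicate block and single tumors left out. Replicates are separate tumors, and p-values measure the spread between them. Precision is limited by 3 tumors per group.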

Additional observations from a re-analysis of the deposited data

How the results depend on the processing

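No member passed the adjusted threshold under any of the 15 alternatives of a comparison. Gclc kept an unadjusted p under 0.05 in 15 of 15 alternatives against nonresponsive tumors (p 0.00433 to 0.0373 in limma, adjusted p 0.33 to 1.0 in the leave-one-out fits) and in 15 of 15 against PBS tumors (p 0.00346 to 0.0372), G6pdx in 13 of 15 against nonresponsive tumors and Osgin1 in 11 of 15 against PBS tumors. The cause of the changes below was not tested. Scaling the rows that name a gene to 1000000 moved the median of all features in responsive against nonresponsive tumors from -0.066 to -0.2485 and the share of unadjusted calls that were higher from 73.8% to 34.5%, against PBS tumors from -0.1106 to -0.2526 and 49.2% to 29.5%, and in nonresponsive against PBS tumors from -0.0574 to -0.0145 and 46.8% to 58.5%. Under it Nqo1 was at -0.0094 in responsive against nonresponsive tumors, and Gclm at 0.017 and Srxn1 at 0.0058 in nonresponsive against PBS tumors, and in responsive tumors Txnrd1 was at -0.635 against nonresponsive (unadjusted p = 0.0181 in limma) and G6pdx at -0.444 against PBS tumors (unadjusted p = 0.041). Pseudocount 0.1 turned Gpx2 to 0.466 in nonresponsive against PBS tumors. At 5 FPKM Nqo1 and Gpx2 were not testable, the member median in responsive against nonresponsive tumors was -0.201, and 270 features had an unadjusted p under 0.05 in nonresponsive against PBS tumors, beside 444 at 1 FPKM and 810 with no filter.

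Same-numbered tumors did not deviate together in every pair of any comparison (r 0.508, 0.06 and -0.027; -0.314, -0.344 and 0.142; -0.417, -0.051 and -0.186 in the 3 comparisons), so the numbers were not taken to pair the tumors. With the replicate block the unadjusted calls over all features were 934, 948 and 237, adjusted calls were 1, 0 and 0 beside 16, 32 and 11, and members at an unadjusted p under 0.05 against PBS tumors were 1 (also 1 in the unmoderated model). Osgin1 under the block had an unadjusted limma p of 0.0491 against nonresponsive and 0.0646 against PBS tumors.

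Leaving out 1 tumor gave 310 to 1425, 1005 to 3875 and 216 to 1859 unadjusted calls over all features in the 3 comparisons, with 1 to 3, 1 to 2 and 0 to 1 members among them. Adjusted calls in responsive against nonresponsive tumors were fewest at 0 (responsive tumor 3 left out, smallest adjusted p = 0.0545 in limma, 332 unadjusted calls) and most at 32 (nonresponsive tumor 1 left out). Against PBS tumors they were 7 (responsive tumor 3 left out) to 49 (PBS tumor 2 left out), and in nonresponsive against PBS tumors 2 (nonresponsive tumor 2 left out) to 30 (nonresponsive tumor 3 left out). The member medians were -0.112 to 0.236, 0.049 to 0.402 and 0.009 to 0.295. Members whose sign turned with 1 tumor were, in responsive against nonresponsive tumors, Nqo1 (-0.068 to 0.308), Hmox1 (-1.069 to 0.107) and Slc7a11 (-0.81 to 0.165); against PBS tumors, Hmox1 (-0.013 to 1.235); and in nonresponsive against PBS tumors, Nqo1 (-0.078 to 0.224), Gclc (-0.00084 to 0.481), Gclm (-0.189 to 0.165), Slc7a11 (-0.568 to 0.407), Srxn1 (-0.1 to 0.028) and Gpx2 (-0.885 to 0.255). Depth is unknown, so no limit from counting can be given.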
